A study of Mus musculus with 7 samples.

Results

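H3K27me3 peaks that were called only in cells without Ring1a and Ring1b, and that lay between protein-coding genes, are described here. Of the 2340 H3K27me3 peaks of the double knockout (2KO), 264 shared no base with any control peak and kept at least 1 kb from every protein-coding gene body of the RefSeq annotation. They were chosen by the called positions of both peak lists, so their absence from the control list is a description and not a result. Among all 2KO peaks, 548 (23.4%) shared no base with a control peak. Among the 622 2KO peaks between genes, the 264 made up 42.4% (95% Wilson interval 38.6 to 46.4). In the other direction, 604 of 942 control peaks between genes (64.1%) shared no base with a 2KO peak.

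The cells were epidermal progenitors of newborn mice (postnatal day 0), sorted by flow cytometry on EpCAM, Sca1 and high α6-integrin. Control cells and Ring1a/b 2KO cells each had 2 labelled immunoprecipitation libraries but 1 peak list, and the labels used here give neither the alleles nor the Cre driver. The titles of the 2KO libraries name H3K27me1, whereas their antibody field and their peak list name H3K27me3. The lists were read as H3K27me3, and the libraries of input DNA and of Eed cKO cells were not analysed here. Since each genotype has a single list, replicate error could not be measured and nothing was tested. The lists carry positions only, so height and sequencing depth are unknown. Intervals are 95% Wilson intervals, or for a median the binomial order-statistic interval, and cover counting error over peaks that are not replicates.

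Ring1a and Ring1b are the ubiquitin ligase subunits of Polycomb repressive complex 1 and act on histone H2A. Polycomb repressive complex 2 trimethylates lysine 27 of histone H3. At silenced developmental genes both complexes bind CpG-rich DNA, and each can recruit the other. H3K27me3 usually forms wide domains over such genes, and active CpG-rich promoters normally lack it. A peak list shows where a caller placed a boundary, not how much of the mark was there. None of the 22 basal progenitor genes listed, such as Krt5, Krt14 and Trp63, had a peak of either list within 1 kb of its body. For cell types a sort could hold besides, a control and a 2KO peak lay at 14 and 10 of 21 Merkel cell genes, 10 and 5 of 15 dermal fibroblast genes, 5 and 4 of 10 endothelial genes, 3 and 1 of 11 melanocyte genes and 2 and 3 of 14 immune genes. Hair follicle genes had such peaks at 15 and 6 of 33, and epidermal differentiation genes at 3 and 1 of 33. Over all 21631 protein-coding genes the shares were 11.7% (control) and 7.82% (2KO). The peak lists hold no expression and cannot measure cell content, whose part in the results was not tested.

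DNA from inside the peaks is shown first. The 264 peaks covered the annotated start of a non-coding RNA in 7 cases, and the RefSeq start windows (GRCm38.p6, from 250 bases before to 50 after the start) of 2 genes among them are printed as examples, picked after their values were seen. All 9 start windows found for these RNAs lay wholly inside a 2KO-only peak. Gm32810 is a long non-coding RNA gene in the peak farthest from any control peak. Gm40959 is a long non-coding RNA gene in a 6.72 kb peak between Tspan17 and Unc5a. Every CG pair is in capitals.
Gm32810, chr1:112416869-112417168, minus strand: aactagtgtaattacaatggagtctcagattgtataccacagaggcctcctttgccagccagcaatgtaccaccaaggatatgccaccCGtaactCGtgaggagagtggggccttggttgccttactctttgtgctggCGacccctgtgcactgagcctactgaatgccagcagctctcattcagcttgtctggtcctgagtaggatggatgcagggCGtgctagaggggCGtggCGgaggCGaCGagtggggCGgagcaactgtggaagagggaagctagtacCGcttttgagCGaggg
Gm40959, chr13:54874820-54875119, minus strand: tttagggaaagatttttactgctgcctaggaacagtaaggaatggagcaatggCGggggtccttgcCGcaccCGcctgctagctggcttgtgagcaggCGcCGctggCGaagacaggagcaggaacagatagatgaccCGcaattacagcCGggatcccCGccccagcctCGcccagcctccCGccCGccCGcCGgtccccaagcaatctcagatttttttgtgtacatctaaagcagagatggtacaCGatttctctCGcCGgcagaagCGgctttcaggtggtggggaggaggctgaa
The Gm32810 window held 11 CG pairs at 56.0% G and C, and the printed Gm40959 window, 1 of 2 for this gene, 18 at 58.7%. Their ratios of observed to expected CG pairs, given the C and G present, were 0.481 and 0.698. These are among the higher of the 9: the second Gm40959 window had 0.492 and 4930545L08Rik 0.491, and Gm34722, Gm40419, Gm31724, Gm31188 and Gm26560 had 0.424, 0.226, 0.217, 0.112 and 0. Of the 264 peaks, 62 lay 1 to 5 kb upstream of a protein-coding gene of known strand. In 50 of these 62 genes the start was CpG-rich, with a CG ratio of at least 0.6. The rule keeps every peak at least 1 kb from protein-coding genes, so none could cover such a start. For 4 of the 10 widest peaks, a gene of known strand faced the peak with its start within 5 kb, and the 250 bases before that start are printed. They are DNA near these peaks that the rule does not allow a peak to cover.
Tomm70a, chr16:57121464-57121713, plus strand: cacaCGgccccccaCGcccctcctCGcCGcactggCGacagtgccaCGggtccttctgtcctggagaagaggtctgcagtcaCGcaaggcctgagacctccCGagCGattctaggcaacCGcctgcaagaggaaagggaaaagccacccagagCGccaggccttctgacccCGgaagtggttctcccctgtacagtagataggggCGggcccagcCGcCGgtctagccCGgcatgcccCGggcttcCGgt
Psme3, chr11:101315963-101316212, plus strand: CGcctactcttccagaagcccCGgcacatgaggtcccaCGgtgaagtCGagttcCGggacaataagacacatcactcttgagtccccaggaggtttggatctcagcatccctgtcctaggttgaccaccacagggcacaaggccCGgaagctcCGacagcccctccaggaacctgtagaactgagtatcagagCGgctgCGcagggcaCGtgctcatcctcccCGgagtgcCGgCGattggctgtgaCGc
Hsd17b12, chr2:94157910-94158159, minus strand: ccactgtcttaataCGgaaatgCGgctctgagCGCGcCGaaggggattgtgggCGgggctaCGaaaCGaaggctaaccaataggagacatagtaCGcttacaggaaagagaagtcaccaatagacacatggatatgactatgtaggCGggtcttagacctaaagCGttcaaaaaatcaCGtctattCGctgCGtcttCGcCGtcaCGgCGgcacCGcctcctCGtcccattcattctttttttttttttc
Fam98b, chr2:117249489-117249738, plus strand: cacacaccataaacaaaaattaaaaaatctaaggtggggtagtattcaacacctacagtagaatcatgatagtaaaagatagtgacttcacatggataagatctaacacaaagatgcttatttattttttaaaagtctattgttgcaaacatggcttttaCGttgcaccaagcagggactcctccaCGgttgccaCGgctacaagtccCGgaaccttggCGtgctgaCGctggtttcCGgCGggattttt
These windows held 18, 14, 20 and 8 CG pairs in the order printed. The letters CCGGAAG, the core of a binding motif of ETS family factors, were found in the Tomm70a and Psme3 windows on either strand and not in the Hsd17b12 and Fam98b windows.

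The peaks were short beside other called regions. Their median width was 3392.5 bp (interval of the median 3123 to 3711, quartiles 2228.5 and 4823.25), from 771 to 13387 bp. 2KO peaks between genes that did overlap a control peak had a median of 5193 bp (n = 358). The 284 2KO-only peaks at or in genes had 4052.5 bp, and the 604 control-only peaks between genes 3897.5 bp. A wide peak meets a control peak or a gene more easily, so the rule itself favours short peaks. How much of these differences follows from the rule was not tested. Together the 264 peaks covered 982 kb. The 10 widest measured from 8.16 to 13.4 kb, and they were of different kinds. The widest lay 1.72 kb before Tomm70a, which encodes an import receptor of the mitochondrial outer membrane (chromosome 16, 57106603 to 57119989), and 3483 kb from the nearest control peak. The peak between Irf8 and Foxf1, a forkhead gene of mesoderm development, measured 11.2 kb (chromosome 8, 120958329 to 120969535) and ended 7.98 kb from a control peak. Next came peaks of 9.78 kb beyond the end of Pax2, a kidney and eye developmental gene (chromosome 19, 44865353 to 44875127), and of 9.75 kb before Foxd3, a neural crest gene (chromosome 4, 99554647 to 99564400). They lay 5.97 and 7.76 kb from control peaks. The peak before Psme3, a proteasome activator gene, measured 9.09 kb (chromosome 11, 101305080 to 101314169), with the nearest control peak at 468 kb. Of these 10, 5 lay within 20 kb of a control peak and 4 lay 90 kb or more away.

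**Figure D1:**
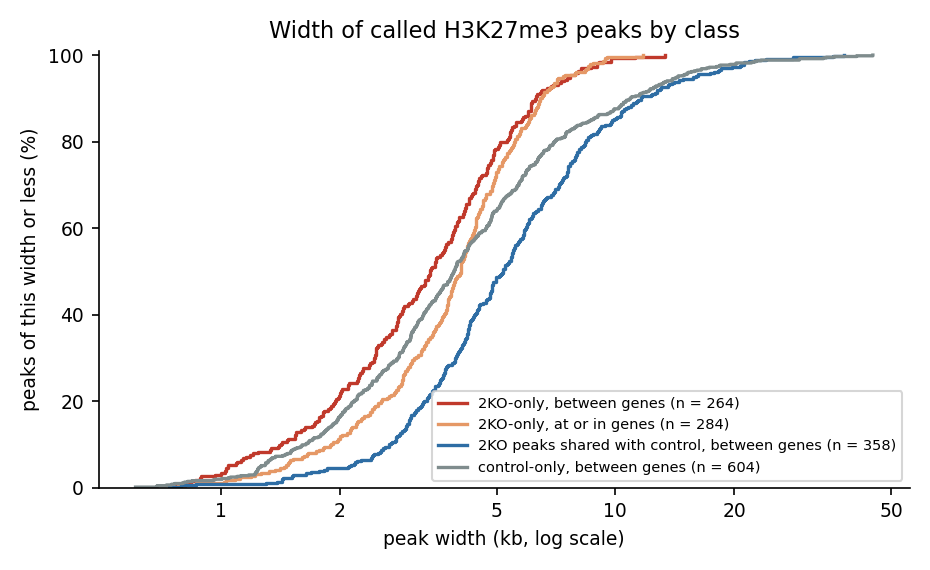
Cumulative share of peaks (percent, vertical axis) by peak width (kb, log scale, horizontal axis) for 4 classes. They are the 264 2KO-only peaks between genes, the 284 2KO-only peaks at or in genes, the 358 shared 2KO peaks between genes and the 604 control-only peaks between genes. The 2KO-only peaks between genes have the smallest median of the 4 classes, 3392.5 bp, and the shared peaks the largest, 5193 bp. A wide peak passes the rule less easily, so this order is a description.

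The distance to the nearest control peak spread over a wide range, with a median of 93.4 kb (quartiles 20.7 and 265 kb). At the short end, 27 of 264 lay within 5 kb of a control peak, 64 within 20 kb and 133 within 100 kb. At the long end 15 peaks had none within 1 Mb. The 5 farthest lay near Dsel, Spice1, Pomc, Tfg and Mysm1. Dsel encodes an epimerase-like enzyme of dermatan sulfate synthesis, and the 3.41 kb peak between it and Cntnap5a (chromosome 1, 112414022 to 112417431) lay 6569 kb from a control peak and 549 kb from the gene. The others were 3585 to 5437 kb from a control peak and 2.24 to 12.1 kb from their gene. Spice1 encodes a centriole protein, Pomc the precursor of melanocortins and corticotropin, Tfg a protein of export from the endoplasmic reticulum and Mysm1 a deubiquitinase of histone H2A.

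Genes were near. The median distance to the nearest protein-coding gene was 8.02 kb (interval 6.48 to 10.9), beside 21.8 kb for shared and 41.6 kb for control-only peaks between genes. The gap between genes that held the peak had a median length of 50.8 kb, beside 126 and 227 kb. A gene lay within 5 kb of 103 of the 264 peaks (39.0%, 33.3 to 45.0), compared with 62 of 358 shared peaks (17.3%, 13.8 to 21.6) and 61 of 604 control-only peaks (10.1%, 7.94 to 12.8). The rule sets only the lower limit of 1 kb, and it set the same limit for all 3 classes. Just inside it, the peaks at Lhx5, Armc8 and Smu1 lay 1005, 1032 and 1034 bp away, and just outside it the 2KO-only peaks at Tmem41b, Pgghg and Cnot10 lay 958, 942 and 936 bp away. At the limit on the control list, the peaks nearest to a control peak had 11, 1043 and 1206 bases between them and it, at Fgf9, Ccdc184 and Sox1. On the other side, the shared peaks with the fewest common bases had 161, 494 and 678, at Pdx1, Ccnh and Zfp870.

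**Figure D2:**
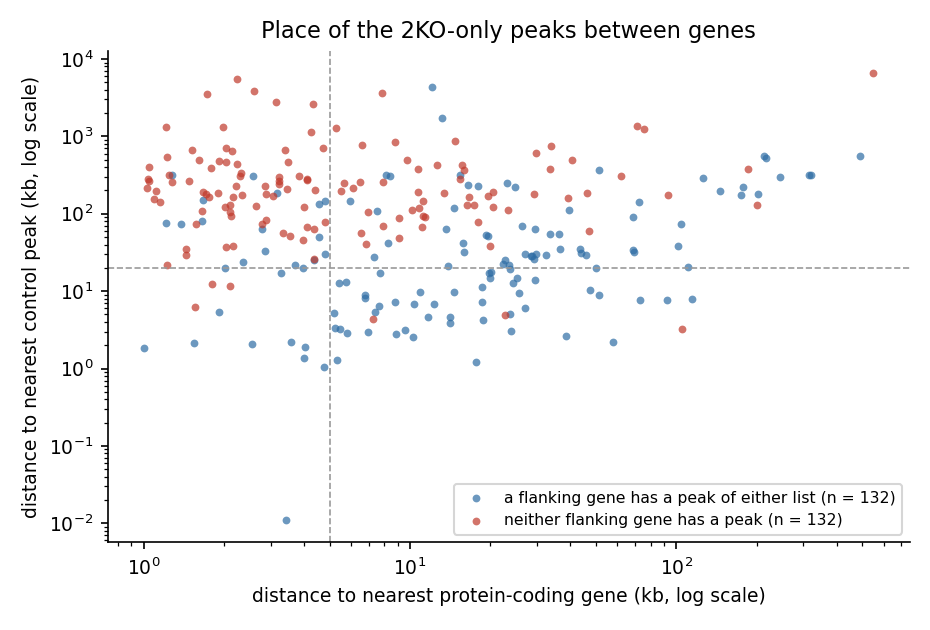
Each point is 1 of the 264 peaks, placed by its distance to the nearest protein-coding gene (horizontal, log scale) and to the nearest control peak (vertical, log scale), with dashed lines at 5 kb and 20 kb. Blue points have a flanking gene with a peak of either list (132) and red points do not (132), and 64 points lie below 20 kb on the vertical axis.

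Peaks close to a gene mostly lay on the side of its start. The strand of the nearest gene was known for 202 peaks, and 132 of them (65.3%, 58.6 to 71.6) lay upstream. At 1 to 2 kb from the gene 26 of 28 lay upstream (92.9%, 77.4 to 98.0), at 2 to 5 kb 36 of 51 (70.6%, 57.0 to 81.3), at 5 to 20 kb 44 of 71 (62.0%, 50.3 to 72.4) and at 20 kb or more 26 of 52 (50.0%, 36.9 to 63.1). Within 5 kb that gave 62 of 79 (78.5%, 68.2 to 86.1), beside 32 of 48 for shared peaks (66.7%, 52.5 to 78.3) and 24 of 41 for control-only peaks (58.5%, 43.4 to 72.2). The differences between these 3 shares were not tested. Across all distances the shares were 65.3%, 54.0% (48.1 to 59.7) and 49.8% (45.2 to 54.4).

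**Figure D3:**
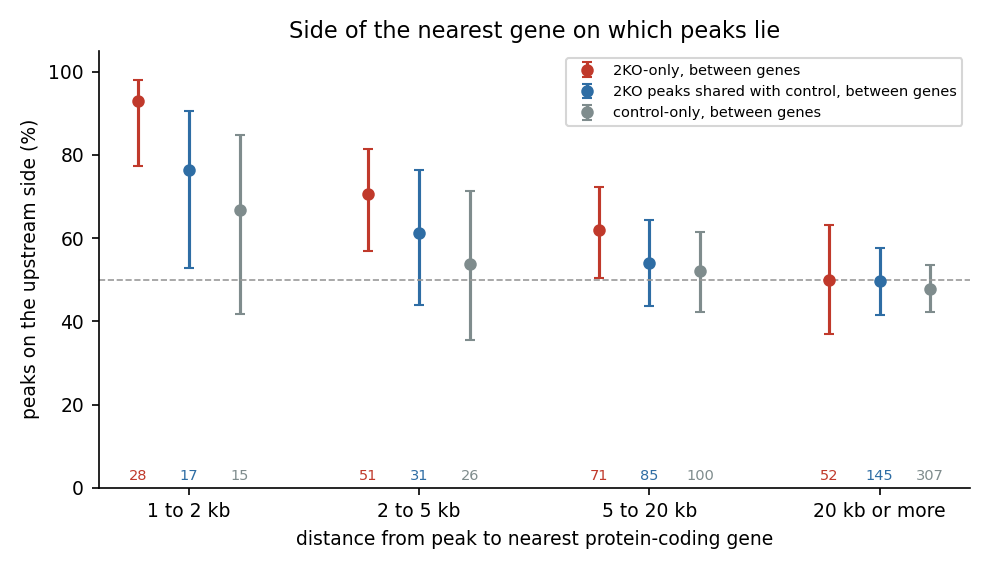
Percent of peaks on the upstream side of the nearest protein-coding gene (vertical axis) by distance to that gene (horizontal axis), for 2KO-only, shared and control-only peaks between genes, with 95% Wilson intervals as bars and the number of peaks printed at the bottom. The 2KO-only peaks go from 92.9% at 1 to 2 kb to 50.0% at 20 kb or more, the dashed line.

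Most of the 62 genes that had such a peak upstream within 5 kb carried no H3K27me3 peak of their own, as holds for most genes. A peak of either list touched the body, extended by 1 kb, of 4 of 62 (6.45%, 2.54 to 15.4). The share over all 21631 protein-coding genes was 12.9%, which lies inside that interval, so these genes were not set apart from the background. For genes with a shared peak upstream within 5 kb it was 20 of 32 (62.5%, 45.3 to 77.1), and with a control-only peak 8 of 24 (33.3%, 18 to 53.3). The 4 of 62 with a peak were Fgf9, Slc6a5, Arhgap44 and Stpg2. The 62 peaks had a median width of 4018 bp, ended a median of 2.11 kb before the gene and lay a median of 159 kb from a control peak, with 40 of them 100 kb or more away. Where both flanking strands were known, 31 of 50 gaps were head-to-head, meaning that the genes on both sides start from the gap. Choosing peaks upstream of their nearest gene excludes tail-to-tail gaps and favours head-to-head ones by construction. No share chosen in the same way is set beside this count, so it is a description.

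Among the 62 were genes of processes common to all cells. Beside Tomm70a and Psme3, the following were picked after their values were seen. Taf1a encodes a subunit of the RNA polymerase I initiation factor, and a 6.85 kb peak lay 1.21 kb before it (chromosome 1, 183380823 to 183387672), with no control peak within 1319 kb. Ptpn11, which encodes the phosphatase SHP2, had a peak of 7.89 kb at 1.92 kb (chromosome 5, 121193316 to 121201204). Exosc3 encodes a subunit of the RNA exosome and had a 5.46 kb peak at 2.25 kb. The peak of Mrps22, a mitochondrial ribosomal protein gene, measured 5.42 kb at 1.72 kb. Prpf8, a core splicing factor gene, had 4.33 kb at 1.11 kb. None of these 5 genes, nor Tomm70a or Psme3, had a peak of either list in its body. A list of 474 core genes was made by symbol prefix after these values were seen. It took in genes of transcription, splicing, translation, the RNA exosome, the proteasome, mitochondrial import and respiratory complex I (Nduf). It held 17 of the 485 distinct genes flanking the 264 peaks (3.51%, beside 2.19% of all protein-coding genes and 2.11 and 2.07% of the genes flanking shared and control-only peaks). Since the list was built from the genes seen here, this count describes that choice. Of those 17, 0 had a peak of either list, and of all 474 listed genes 11 had one.

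The starts of the 62 genes were CpG-rich in most cases. In the RefSeq windows around the start, the observed over expected CG ratio was at least 0.6 in 50 of 62 (80.6%, 69.1 to 88.6). It was so in 48.3% of the 17492 protein-coding genes in the promoter table, in 24 of 32 starts with a shared peak upstream (75%, 57.9 to 86.7) and in 14 of 24 with a control-only peak (58.3%, 38.8 to 75.5). The letters CCGGAAG, searched on both strands and unable to overlap the other motifs searched, stood in 37.1% of the 62 starts (23 genes) and in 11.9% of all starts. Among CpG-rich starts alone the shares were 42.0% of 50 and 19.9% of 8453. Over all their starts, the shared and control-only classes gave 18.8% of 32 and 8.33% of 24. Among their CpG-rich starts alone it was 25.0% of 24 and 7.14% of 14. These classes are small, and the differences were not tested. CCAAT stood in 43.5% of the 62 and 39.0% of all starts, and TATAAA in 9.68 and 13.3%. A match is a string of letters, and no factor was measured.

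A further set of peaks lay beside domains that control cells already had. Of the 64 peaks within 20 kb of a control peak, 57 (89.1%, 79.1 to 94.6) had a flanking gene marked in the control list, that is, with a control peak in its body extended by 1 kb. Among the 131 peaks 100 kb or more away it was 26 (19.8%, 13.9 to 27.5). Over all 264 it was 123 (46.6%, 40.7 to 52.6), and 107 had a flanking gene marked in the 2KO list (40.5%, 34.8 to 46.5). Single genes were marked in 11.7% (control) and 7.82% (2KO) of 21631, and each peak has a gene on both sides. The shares were 70.9 and 53.6% for shared peaks and 61.6 and 26.7% for control-only peaks. The split by distance to a control peak and the marking of a flanking gene rest on the same control peaks, so the difference between 89.1 and 19.8% follows in large part from the split and is a description. The nearest control peak of the 64 itself overlapped a 2KO peak in 55 cases (85.9%, 75.4 to 92.4). The same share over all control peaks, at genes and between them, is not given here. Of the control peaks between genes alone, 64.1% shared no base with a 2KO peak. Whether 85.9% is particular to these sites was not tested.

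Developmental regulators stood at some of these sites. Of a list of 130 developmental transcription factor genes, 19 flanked the 264 peaks (3.92% of 485 flanking genes, beside 0.601% of all protein-coding genes). The shares beside shared and control-only peaks were 8.45 and 6.09%. All 19 had a control peak and 18 a 2KO peak, the exception being Zic1, and in the list as a whole 115 of 130 had a control peak and 91 a 2KO peak. A flanking gene of this list was found for 13 of the 64 peaks within 20 kb of a control peak (20.3%, 12.3 to 31.7), 8 of 69 at 20 to 100 kb (11.6%, 5.99 to 21.2) and 4 of 131 farther away (3.05%, 1.19 to 7.59). Since 115 of the 130 genes have a control peak, this order too follows in large part from the split. None of the 62 genes with a peak upstream within 5 kb was on the list. With only 0.601% of protein-coding genes on it, this absence among 62 genes says little.

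Single sites show the geometry. At Fgf9, which encodes a fibroblast growth factor, the peak measured 5.59 kb (chromosome 14, 58061669 to 58067253). It ended 11 bases before an 8.69 kb control peak at the gene and 3.42 kb before the gene itself. At Sox1, a gene of early neural progenitors, a 4.91 kb peak (chromosome 8, 12372893 to 12377801) ended 1.21 kb from a 32.6 kb control peak. Beyond Pax2 and before Foxd3, the gaps to the gene were 27.1 and 91.9 kb, and the control peak that the 2KO-only peak neighboured was 6.66 and 3.79 kb wide. After their values were seen, Bsx and Six3 were added. Bsx, a homeobox gene of the hypothalamus, had 2KO-only peaks of 7.67 and 7.69 kb on either side of its 14.8 kb control peak, 6.88 and 2.11 kb from it. Six3, a forebrain homeobox gene, had one of 4.73 kb, 3.12 kb from a 32.9 kb control peak. At each of these 6 genes the neighbouring control peak overlapped a 2KO peak. The 11.2 kb peak between Irf8 and Foxf1 was not among them, and the control peak 7.98 kb from it overlapped no 2KO peak. Over all 64 peaks within 20 kb of a control peak, 55 had a nearest control peak that overlapped one.

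The peaks mostly stood alone. With gaps under 100 kb joined, 217 were single, 22 runs held 2 and 1 run held 3. The run of 3 lay at Lhx5, a LIM homeodomain gene of the forebrain, over 93.6 kb of chromosome 5 (120354845 to 120448476). Its peaks measured 7.52, 4.84 and 6.01 kb. The first 2 lay 69.5 and 47.4 kb to the left of Lhx5 and the last 1.01 kb to its right, toward Sdsl. Between them the control list had peaks of 4.81 and 16.9 kb, and the 2KO list had shared peaks of 8.69 and 26.2 kb over the same places, each wider than its control counterpart. Over all 264, another of these peaks lay within 50 kb for 38 (14.4%, 10.7 to 19.1), and any other 2KO peak for 115 (43.6%, 37.7 to 49.6). For shared peaks the second share was 56.1% (51.0 to 61.2).

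**Figure D4:**
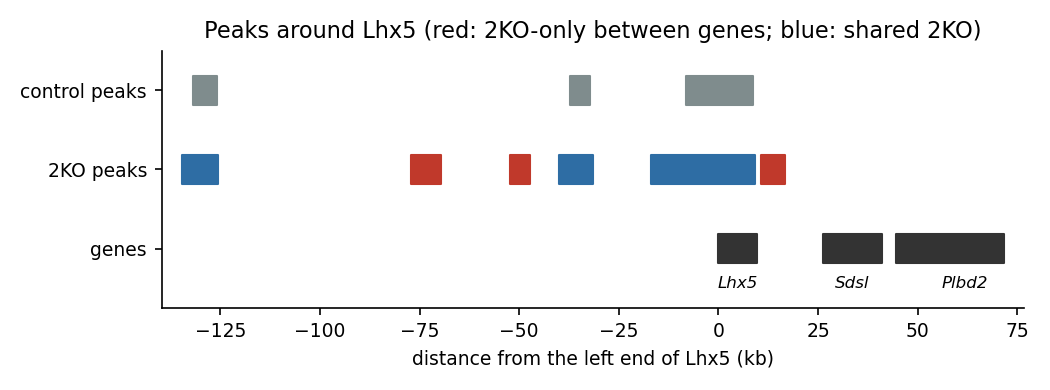
Map of the Lhx5 region, with distance from the left end of Lhx5 in kb on the horizontal axis and tracks for control peaks, 2KO peaks and genes. Red boxes are the 3 2KO-only peaks of 7.52, 4.84 and 6.01 kb and blue boxes the 2KO peaks that overlap a control peak, which lie between or outside them.

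In some pairs the peaks lay close together (these examples were picked after their values were seen, and a span runs from the first to the last base of a pair, not over the whole gap between genes). Between Rab7, a gene of late endosomes, and Rpn1, a gene of the oligosaccharyltransferase, 2 peaks took up 12.8 kb of a 14.6 kb span, with no control peak in it. Between Plpp4 and Wdr11, 2 took up 10.2 kb of an 11.4 kb span. Between Mia3, a gene of collagen export, and Taf1a, 2 peaks covered 9.63 kb of a 16.1 kb span, 1 before the start of each gene. Between Fgf23 and Fgf6, which encode fibroblast growth factors, 2 covered 6.36 kb of a 25.5 kb span. At the other extreme, 77 of the 264 (29.2%, 24.0 to 34.9) lay 20 kb or more from any gene, beside 52.8% of shared and 68.9% of control-only peaks. After the Dsel peak, the farthest from a gene was one of 3.40 kb, 488 kb beyond the end of Tbc1d22a (chromosome 15, 86986580 to 86989976). A pair of 2.62 and 3.87 kb lay 321 and 315 kb from Gm6569, on the side of Adgrb1 (chromosome 15, 74154703 to 74163255). A peak of 3.29 kb lay 246 kb beyond Pcdh10, a protocadherin gene (chromosome 3, 45680186 to 45683478). These 4 peaks were 296 to 551 kb from a control peak.

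Over all gaps, 56 of 166 peaks with both strands known lay in a head-to-head gap (33.7%, 27 to 41.2), 24 in a tail-to-tail gap (14.5%, 9.91 to 20.6) and 86 between genes of the same direction. Head-to-head gaps held 28.8% of shared and 24.8% of control-only peaks, and made up 26.0% of all gap bases. Of the 17 peaks that lay within 5 kb beyond the end of a gene, 5 had a gene with a peak of either list (29.4%, 13.3 to 53.1). It was 7 of 16 for shared peaks (43.8%, 23.1 to 66.8) and 7 of 17 for control-only peaks (41.2%, 21.6 to 64.0). The share over all protein-coding genes was 12.9%. These classes are small, and the differences were not tested.

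Of the 264, 59 overlapped a non-coding gene of the table (22.3%, 17.7 to 27.7), compared with 150 of 358 shared peaks (41.9%, 36.9 to 47.1) and 186 of 604 control-only peaks (30.8%, 27.2 to 34.6). Long non-coding RNA genes lay under 45 (17.0%, beside 33.2 and 27.8%) and pseudogenes under 14 (5.30%, beside 5.31 and 1.16%), so the order of the classes was not the same for both kinds. The differences were not tested. An annotated RNA start lay inside 7 (2.65%, 1.29 to 5.37), beside 48 of 358 (13.4%, 10.3 to 17.3) and 52 of 604 (8.61%, 6.63 to 11.1). A wide peak covers a start more easily, and widths were not matched. The peak of Gm32810, printed above, lay in a gap of 3820 kb between genes. The Gm40959 peak (chromosome 13, 54869864 to 54876585) also held the start of Gm31188 and lay 34.3 kb from a control peak. The widest peak over a non-coding gene was that near Foxd3, followed by those near Hsd17b12, Fam98b and Zscan10, a zinc finger gene of pluripotent cells (8.02 kb, 3.96 kb from the gene). An 8.98 kb peak upstream of Hsd17b12, a gene of long-chain fatty acid and steroid metabolism, ran over Mir670hg, a microRNA host gene, but over no microRNA gene.

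MicroRNA genes lay under 2 of the 264 peaks. The first (4.95 kb, chromosome 12, 109610383 to 109615332) lay in the imprinted region of Rtl1 and Dio3, over the maternally expressed non-coding gene Rian, and held Mir341 and Mir1188. It lay 5.96 kb from Rtl1 and 148 kb from a control peak. The second (3.91 kb, chromosome 5, 113322468 to 113326378) held Mir7229, 11.7 kb upstream of Sgsm1 and 4.58 kb from a control peak. Their mature sequences in RefSeq are printed so that the loci can be identified, with the seed, bases 2 to 8, in capitals.
mmu-miR-341-5p: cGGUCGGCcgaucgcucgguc
mmu-miR-341-3p: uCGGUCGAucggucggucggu
mmu-miR-1188-5p: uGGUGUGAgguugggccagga
mmu-miR-1188-3p: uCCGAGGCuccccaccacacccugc
mmu-miR-7229-3p: uACACAGAccagugacuuucugca
mmu-miR-7229-5p: uAGUAGACaucccuggauagc
The 6 seeds all differ. Shared peaks covered a microRNA gene in 9 of 358 cases and control-only peaks in 1 of 604.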

How the data were processed

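The authors deposited 1 H3K27me3 peak list for control and 1 for Ring1a/b 2KO cells, each with chromosome, start and end as its only values. Per the submitters' processing notes, Bowtie2 2.3.3.1 and SAMtools 1.9 were used on mm10. How peaks were called, at which threshold, with or without input and on pooled or single libraries is not given in the sources used here. Starts were read as counted from 0 and are printed counted from 1. Genes came from the RefSeq table of GRCm38.p6 (mm10), which has 21631 protein-coding genes on the listed chromosomes. Strand came from the RefSeq promoter table and was known for 17274 of them.

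Peaks, gaps and flanking genes were computed in Python 3.11.15 with pandas 2.3.3 and numpy 2.4.6, Wilson intervals with scipy 1.17.1, and figures with matplotlib 3.10.9. All 264 peaks were described and no filter on low values was applied. Simulated lists were used to check the code. Neither genotype has replicate lists, so no test was run. The labels do not say whether the 2 libraries of a genotype came from separate animals, and depth was unknown. The members and lists were chosen with earlier results of these data known. Named by rule were the 10 widest peaks, the 5 farthest from control peaks or genes, runs of 3 or more, peaks over microRNA genes, the 10 widest over other non-coding genes and the 3 nearest to a control peak. Side of the gene, promoter content, motifs, the distance classes and the core gene list were chosen after the data were seen. The planned GC and repeat content of the peaks was not run, since no genome was given here.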

Additional observations from a re-analysis of the deposited data

How the results depend on the processing

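No paired analysis was possible because the files hold 1 list for control and 1 for 2KO cells, which also left no replicate to omit. Of 123 reruns, 91 stayed within the counting interval of the value reported, or within 1.5 times of a count. Gene extensions of 5 and 10 kb left 161 and 122 peaks. The share of between-gene 2KO peaks without a control peak was then 35.2 and 33.1%, the median distance to a control peak 60.5 and 65.9 kb and to a gene 19.6 and 25.4 kb. A marked flanking gene of either list was then found for 64.6 and 67.2%, of the control list for 62.1 and 63.9% and of the 2KO list for 53.4 and 56.6%. An extension of 5 kb left 56.9% upstream of the nearest gene. With no extension the distance to a gene was 6.30 kb and the 2KO share 47.3%. Extensions change which distances can occur, by construction. With 2KO peaks at or above the median width only, 44 peaks were left, 21.5% of their class. Their median width was 6505.5 bp, 50.4 kb from control peaks and 5.47 kb from genes. Of them 9.09% had another within 50 kb, 54.5% a control-marked flanking gene, 80.0% lay upstream and 88.9% did so within 5 kb. With all genes of the table excluding a peak, the share without a control peak was 50.9%. With equal numbers of peaks it was 60.9%, with no control peak allowed within 5 kb 38.1% and with under 50% under control peaks 47.9%, where the distance to a control peak was 65.7 kb. Runs within 20 kb held 9.09%. Causes other than these constructions were not tested. Overlap with a non-coding gene moved outside its interval in no rerun.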

Other observations

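By chromosome, the peaks are set beside all 2KO peaks between genes, of which they made up 42.4%. Chromosome 2 held 30 of 67 such peaks (44.8%), chromosome 4 held 27 of 63 (42.9%), chromosome 5 held 25 of 66 (37.9%) and chromosome 7 held 23 of 41 (56.1%), whereas chromosome 10 held 3 of 14 and the X chromosome 1 of 6. Per 10 Mb of sequence between genes this was 3.17 on chromosome 2 and 0.0811 on the X. The X held few between-gene peaks of either list, 6 2KO and 19 control peaks, beside 67 and 74 on chromosome 2. The highest and the lowest share on an autosome were 14 of 19 on chromosome 15 (73.7%, 51.2 to 88.2) and 6 of 31 on chromosome 13 (19.4%, 9.19 to 36.3).

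Multigene families flanked some of the peaks. Zinc finger genes named Zfp made up 17 of the 485 flanking genes (3.51%, beside 1.85% of all protein-coding genes), and 1 of the 17 had a control peak, as did 20 of all 400. Olfactory receptor genes made up 11 (2.27%, beside 5.13%), and none of the 11 had a peak of either list, as against 8 of all 1110. A 6.26 kb peak lay 1.05 kb upstream of Olfr222. Of the skin lists, no basal progenitor, differentiation or hair follicle gene flanked a peak, but these lists hold only 0.102, 0.153 and 0.153% of protein-coding genes. The Merkel cell gene Isl1, the fibroblast gene Col1a1 and the immune gene Itgam each flanked a peak, at 203, 46.6 and 16.0 kb. Ezh1, which encodes a catalytic subunit of Polycomb repressive complex 2, flanked a 2.42 kb peak at 16.2 kb, and neither list had a peak at it.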
